A study of Homo sapiens with 4 samples.

Results

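HT-29 is a human colorectal cancer cell line that carries truncated APC, a BRAF mutation and stable microsatellites. The genes described here are 10 members of the TGF-β superfamily and its immediate outputs, out of 19729 genes listed for each library. They were taken by symbol: the TGF-β ligands TGFB1, TGFB2 and TGFB3, the activin and inhibin β subunits INHBA and INHBB, the BMP ligands BMP2, BMP4 and BMP7, the matrix gene TGFBI and the inhibitory SMAD gene SMAD7. All 10 were found by their Ensembl identifier, and 9 had a value above 0 in some library.

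RNA was sequenced from HT-29 cells stably transduced with a lentivirus for a doxycycline (DOX)-inducible shRNA, directed either against APC (APC shRNA) or against no target (non-silencing, NonS). Every culture, the NonS control included, received DOX at 500 ng/ml and was harvested after 72 h. Each condition holds 2 biological replicates, I and II, giving 4 libraries in all. The 2 conditions are separately transduced cells of the same line, so a difference between the cell populations other than APC cannot be told apart from silencing, and in bulk RNA fewer expressing cells cannot be told apart from less RNA per cell.

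TGF-β family ligands are secreted dimers that bind paired type I and type II serine/threonine kinase receptors. TGF-β and activin receptors phosphorylate SMAD2 and SMAD3, whereas BMP receptors phosphorylate SMAD1, SMAD5 and SMAD9, and both sets of SMADs enter the nucleus with the shared partner SMAD4. In colonic epithelium BMP signaling is strongest towards the differentiated crypt top and is held down around the stem cells by secreted antagonists, and TGF-β restrains epithelial growth. HT-29 is known as a line without functional SMAD4.

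Sequences before a RefSeq start site are shown for the 4 genes whose libraries separated by condition at more than a trace level. These are stretches in which a shared element could be read. RefSeq start sites (GRCh38.p14) were available for 8 of the 10 genes, with 13 windows of 300 bases, 250 before and 50 after the start. One stretch per gene is printed 5′ to 3′, the one that lies outside annotated exons and holds a searched motif, cut where needed before the gene's own exons. For TGFB3, BMP4 and SMAD7 the printed stretch lies inside the gene's GENCODE span, before an internal start site. The other windows of TGFB3 and SMAD7 hold none of the searched motifs.

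TGFB3 (chr14:75981996-75982245, minus strand, 250 bases): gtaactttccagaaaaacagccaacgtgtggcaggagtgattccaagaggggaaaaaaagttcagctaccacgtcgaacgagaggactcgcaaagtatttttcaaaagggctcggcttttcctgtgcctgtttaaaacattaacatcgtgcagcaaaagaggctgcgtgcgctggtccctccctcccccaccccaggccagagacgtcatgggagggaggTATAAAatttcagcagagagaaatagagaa

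BMP4 (chr14:53955051-53955300, minus strand, 250 bases): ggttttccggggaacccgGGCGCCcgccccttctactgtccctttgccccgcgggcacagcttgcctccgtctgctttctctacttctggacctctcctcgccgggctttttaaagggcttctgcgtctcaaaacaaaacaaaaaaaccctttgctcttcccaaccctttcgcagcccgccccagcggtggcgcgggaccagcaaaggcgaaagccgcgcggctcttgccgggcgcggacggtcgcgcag

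TGFBI (chr5:136028738-136028894, plus strand, 157 bases): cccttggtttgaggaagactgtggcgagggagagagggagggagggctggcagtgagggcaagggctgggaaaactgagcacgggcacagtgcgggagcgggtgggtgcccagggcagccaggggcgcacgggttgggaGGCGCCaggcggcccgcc

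SMAD7 (chr18:48949334-48949583, minus strand, 250 bases): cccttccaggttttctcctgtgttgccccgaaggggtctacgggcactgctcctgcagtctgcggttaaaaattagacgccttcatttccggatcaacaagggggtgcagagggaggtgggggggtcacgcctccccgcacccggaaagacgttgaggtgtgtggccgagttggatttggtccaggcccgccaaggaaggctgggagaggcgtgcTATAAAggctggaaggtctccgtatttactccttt

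Capitals mark the motifs found: the TATA-box letters TATAAA in TGFB3 and SMAD7, and the GC-rich letters GGCGCC, a form bound by BMP-activated SMADs, in BMP4 and TGFBI. Both strands of all 13 windows were searched for 4 motifs. The TCF/LEF core CTTTGAT was in none of the 13 windows, and 2.62% of all 35116 promoter windows of the same length hold it. GGCGCC was in windows of 3 of the genes (BMP4, INHBB and TGFBI) and in 19.22% of all windows, TATAAA in windows of 4 (INHBA, SMAD7, TGFB2 and TGFB3) and in 11.53%, and CAGACA, part of the SMAD-bound CAGA box, in windows of 3 (BMP4, INHBA and TGFB2) and in 16.88%. These matches describe the letters only, and a missing match covers this window alone.

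The files hold whole numbers of unstated scale that behave as depth- and length-scaled scores, so the read depth is unknown and no counting interval is given. For APC, the silenced gene, NonS replicate I gave 3 and the other 3 libraries gave 0, too low to check the labels by its own value. Of the labelled tissue, 8 of 10 colonic epithelial markers were above 0 in every library, with EPCAM between 183 and 224 and KRT8 between 1202 and 1534, while CDX1 was at 0 in the APC shRNA and CDX2 at 0 in the NonS libraries. The summed epithelial markers were 4358 and 5410 in NonS and 4749 and 4947 in APC shRNA libraries. Of these markers LGALS4, a galectin of the intestinal lining, named after its values were seen, stood apart, with 557 and 646 under NonS against 175 and 147 after silencing, and its part in the values below was not tested. All 8 fibroblast markers and all 4 endothelial markers were listed at 0 throughout, and of 4 leukocyte markers PTPRC and CD3E were at 0, with a summed level of 1 to 5. Conditions were compared on log2(value + 1) by limma. The test took the 5376 genes that averaged 10 or more, adjusted p by Benjamini-Hochberg over all of them, and called a gene at an adjusted p under 0.05. In this test 4.33% of the genes were called higher and 3.70% lower after APC silencing.

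Of the 10 genes, 3 reached a mean of 10 and were tested (TGFB1, BMP4 and TGFBI), and 7 did not. None of the 3 was called at an adjusted p under 0.05 in limma, whereas 2 of the 3, BMP4 and TGFBI, had an unadjusted p under 0.05, as did 35.6% of all genes tested. At the study's thresholds of over 4-fold and an adjusted p under 0.01, 0% of all genes tested were called in limma. The smallest adjusted p in limma was 0.0423, so no gene could pass. The study's own calls came from DESeq2 and are not tested by this fit. Of the 10 genes, 6 had both APC shRNA values above both NonS values (TGFB3, INHBB, BMP4, BMP7, TGFBI and SMAD7), 1 had both below (BMP2), and 3 overlapped (TGFB1, TGFB2 and INHBA). Among the 12799 genes above 0 in at least 1 library, 25.9% were separated upwards and 19.1% downwards. The smallest p that an exact permutation test (two-sided) of 2 libraries against 2 allows is 0.333.

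**Figure D1:**
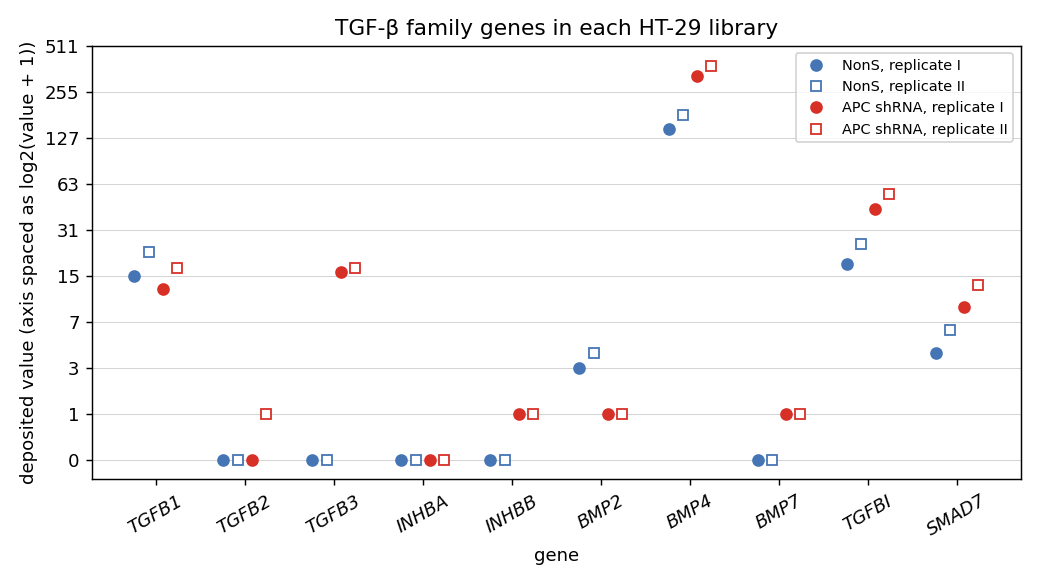
Deposited value of the 10 genes in each of the 4 libraries, on an axis spaced as log2(value + 1). Circles are replicate I, squares replicate II, blue NonS and red APC shRNA. TGFB3 went from 0 in both NonS libraries to 16 and 17, BMP4 had the highest values in every library, and INHBA stayed at 0.

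Among the TGF-β ligands, the 3 isoforms differed in their listed values. TGFB3, a ligand best known from palate fusion and mesenchymal differentiation, lies on chromosome 14 of GRCh38 from 75958099 to 75982991 on the minus strand. Its values were 0 and 0 with the NonS shRNA, and 16 and 17 with the APC shRNA. No fold can be given against a group at 0, and the difference was 4.13 on the log2(value + 1) scale, a size that depends on the pseudocount. Its mean of 8.25 was under the limit for the test. With genes of a mean of at least 8 included, its adjusted p was 0.0437 in limma (2.59% of genes called higher there), and with every gene above 0 included it was 0.000449 in limma (7.44% called higher, 4.02% lower). Zero spread between the NonS libraries enters both values, and TGFB3 reached the limit of 8 only through its APC shRNA values, so these p-values are not independent of the difference.

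Few genes had this pattern. Of the 12799 genes, 232 (1.81%) were at 0 throughout NonS and above 0 throughout APC shRNA, and 3 of the 232 reached at least 10 in both: TGFB3, NKD1 and NGFR, which were picked out after their values were seen. NKD1 is an inhibitor and known target of Wnt signaling, and NGFR is the low-affinity neurotrophin receptor. TGFB3 shares 163 exonic bp with TGFB3-AS1 on the opposite strand. The library kit marks strand, but the strand option of the counting was not given in the sources used here, so reads from the antisense gene could be included.

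By the distance of their 4 centred log2(value + 1) values, the 3 genes closest to TGFB3 were SP5 (distance 0.303), NGFR (0.515) and LARGE2 (0.654), among 12799 genes over 4 libraries. SP5, a Wnt-responsive transcription factor gene, was listed at 3 and 4 with the NonS shRNA and at 65 and 83 with the APC shRNA. LARGE2, the glycosyltransferase gene that the study centres on, was listed at 2 and 1 and at 27 and 32. A likeness over 4 libraries of 2 conditions reflects mainly the difference between the conditions.

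TGFB1, the main growth-restraining isoform in epithelium, lies on chromosome 19 from 41301587 to 41353911 on the minus strand. It was listed at 15 and 22 with the NonS shRNA and at 12 and 17 with the APC shRNA, so the conditions overlapped. Its mean was 18.5 ± 4.95 (SD, n = 2) under NonS and 14.5 ± 3.54 (SD, n = 2) after silencing. The difference of -0.33 on the log2(value + 1) scale (SE 0.28, adjusted p = 0.461 in limma) was within the spread between replicates. It shares 215 exonic bp with HNRNPUL1 on the opposite strand, listed between 157 and 188. TGFB2, the isoform of embryonic and stromal tissue, was listed at 0 in 3 libraries and at 1 in APC shRNA replicate II.

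The activin β subunits were at or near 0. INHBA, whose dimer is activin A, was listed at 0 in all 4 libraries. INHBB, the subunit of activin B, was listed at 0 in each NonS library and at 1 in each APC shRNA library. A step from 0 to 1 is the smallest the whole numbers can show. It gave an adjusted p of 0.000106 in limma when every gene above 0 was tested, a value that comes from the equal entries within each condition.

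BMP4 had the highest listed values of the BMP ligands. BMP4, the crypt-associated ligand that favours differentiation of colonic epithelium, lies on chromosome 14 from 53949736 to 53958761 on the minus strand without any overlapping exon of other genes. It was listed at 146 and 180 with the NonS shRNA and at 324 and 377 with the APC shRNA. All 4 values were high, and the lower APC shRNA value was above the higher NonS value. The mean was 163.0 ± 24.0 (SD, n = 2) under NonS and 350.5 ± 37.5 (SD, n = 2) after silencing, a ratio of 2.15. On the log2(value + 1) scale the difference was 1.10 (SE 0.16) with an adjusted p of 0.0545 in limma, just short of the threshold. A ratio of means over 2 was found in 2.90% of the genes tested.

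BMP2, a close relative of BMP4 that shares its receptors, went the other way in its listed values, with 3 and 4 in NonS and 1 in both APC shRNA libraries. Its ratio of means was 0.286, but values this close to 0 carry large rounding. It was not tested at a mean of 2.25, and with every gene above 0 included its adjusted p was 0.0612 in limma. The genes closest in pattern to BMP2 were MUC5AC and SLC22A3, with the same 4 whole numbers (distance 0), and SEMA4B (distance 0.0463), which was listed at 51 and 63 with the NonS shRNA and at 24 and 25 with the APC shRNA. BMP7, a BMP of kidney and bone, was listed at 0 with each NonS library and at 1 with each APC shRNA library, as INHBB was.

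TGFBI and SMAD7, the output genes, had ratios near that of BMP4. TGFBI encodes a secreted matrix protein named for its induction by TGF-β that binds integrins, and lies on chromosome 5 from 136028895 to 136063818 on the plus strand. It was listed at 18 and 25 with the NonS shRNA and at 43 and 54 with the APC shRNA, with no overlap. The mean was 21.5 ± 4.95 (SD, n = 2) under NonS and 48.5 ± 7.78 (SD, n = 2) after silencing, a ratio of 2.26. The difference was 1.15 on the log2(value + 1) scale (SE 0.23) with an adjusted p of 0.0758 in limma.

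SMAD7 encodes the inhibitory SMAD that occupies type I receptors and recruits ubiquitin ligases to them, and is itself induced by TGF-β and BMP signals. It lies on chromosome 18 from 48919853 to 48952052 on the minus strand. It was listed at 4 and 6 with the NonS shRNA and at 9 and 13 with the APC shRNA, a ratio of means of 2.20. Its mean of 8 kept it out of the test, and with genes of a mean of at least 8 included, a limit it met only through its APC shRNA values, the adjusted p was 0.123 in limma. No exon of another gene overlaps TGFBI or SMAD7.

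Replicate II was listed above replicate I in both conditions for BMP4, TGFBI, SMAD7 and TGFB1. The ratio of replicate II to replicate I was 1.23 and 1.16 for BMP4 in NonS and APC shRNA libraries, 1.39 and 1.26 for TGFBI, 1.5 and 1.44 for SMAD7, and 1.47 and 1.42 for TGFB1. Over all genes tested the median difference between replicates II and I was 0 in NonS and 0.04 in APC shRNA libraries on the log2(value + 1) scale. 

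Between libraries of the same number, the ratio of APC shRNA to NonS was 2.22 and 2.09 for BMP4 in replicates I and II, 2.39 and 2.16 for TGFBI, and 2.25 and 2.17 for SMAD7. For TGFB1 it was 0.80 and 0.773. Nothing in the labels states what the libraries of 1 number shared.

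Whether BMP4 and TGFBI passed the threshold depended on the setting. The 12 alternative settings varied scaling, filter, pseudocount, moderation and GC content, all with the 4 libraries. Fits with a replicate block are not among the 12 and are given in the closing section. Over the 12, the adjusted p of BMP4 in limma ranged from 0.0174 to 0.0828 and was under 0.05 in 5. That of TGFBI ranged from 0.0251 to 0.134 and was also under 0.05 in 5. These 5 settings were the same for both genes, and each called more of all genes tested than the reported fit. Scaling by the median of ratios gave 0.0342 for BMP4 and 0.0496 for TGFBI in limma, with 5.77% of genes called higher. With 1 library left out the difference was 0.95 to 1.25 for BMP4 and 0.92 to 1.37 for TGFBI. Such fits keep only 1 library in a condition, so their p-values cannot show whether a call holds. Over the 12 settings the difference ranged from 1.01 to 1.11 for BMP4 and from 1.02 to 1.18 for TGFBI.

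**Figure D2:**
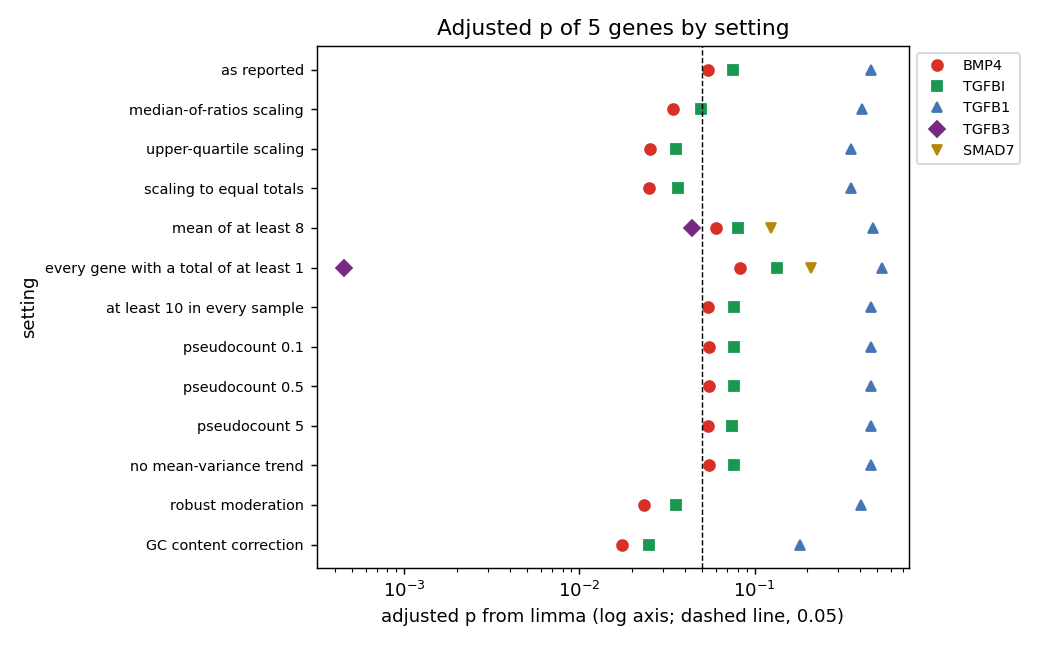
Adjusted p from limma (log axis) for BMP4, TGFBI, TGFB1, TGFB3 and SMAD7, with the dashed line at 0.05. The reported setting is on top, with the 12 alternative settings below it. Fits with a replicate block or with 1 library left out are not shown. BMP4 is at 0.0545 and TGFBI at 0.0758 as reported. TGFB3 and SMAD7 appear only where lower values were tested.

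The listed values appear to be per transcript length, so the order of the genes can be described on that inferred scale. In NonS cells the order of mean values was BMP4 at 163.0, TGFBI at 21.5, TGFB1 at 18.5, SMAD7 at 5.0 and BMP2 at 3.5, with the other 5 listed at 0. TGFBI and TGFB1 overlapped there, at 18 and 25 against 15 and 22, and SMAD7 and BMP2 shared a value of 4. After APC silencing the order was BMP4 at 350.5, TGFBI at 48.5, TGFB3 at 16.5, TGFB1 at 14.5 and SMAD7 at 11.0. The values of TGFB3, at 16 and 17, overlapped with those of TGFB1, at 12 and 17, and TGFB1 overlapped with SMAD7, at 9 and 13. BMP2, INHBB and BMP7 were at 1.0, TGFB2 at 0.5 and INHBA at 0. BMP4 stood above 97.8% of the 12799 genes in NonS and above 99.0% in APC shRNA libraries.

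The rest of the pathway was read from 7 lists with 117 different genes in the files. Of these, 51 were at 0 in every library, 48 were above 0 with a mean under 10, and 18 were tested. In limma 3 of the 18 rose (GDF15, TGIF1 and SOSTDC1) and none fell, against 8.04% called in either direction over all genes tested. The median difference of the 18 was 0.23 on the log2(value + 1) scale, beside 0.03 over all genes tested. Of these 18, SOSTDC1 and ACVR1B averaged under 10 in NonS and passed the limit through the APC shRNA libraries. Fits with 1 library left out kept only 1 library in a condition, so they could not check these calls. Of the 66 genes above 0, 21 were separated upwards and 7 downwards, beside 25.9% and 19.1% of all genes above 0.

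**Figure D3:**
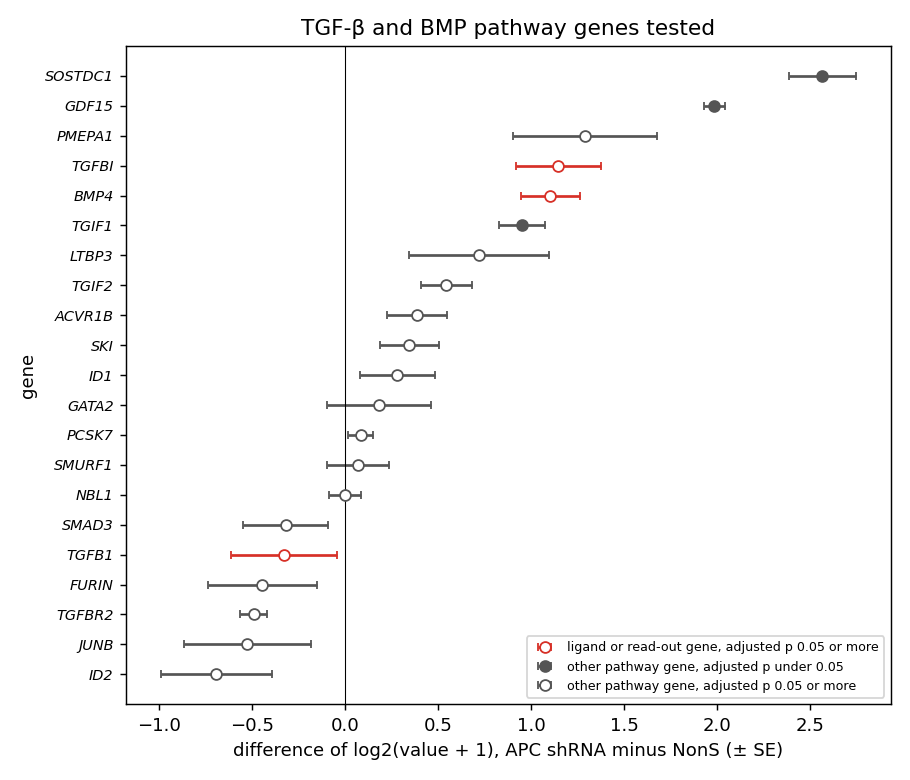
Difference of mean log2(value + 1) between APC shRNA and NonS libraries, with its standard error from limma, for the 3 ligand or read-out genes tested (red) and the 18 other pathway genes tested (grey). Filled points passed an adjusted p of 0.05: SOSTDC1 at 2.56, GDF15 at 1.98 and TGIF1 at 0.95. BMP4 and TGFBI lie at 1.10 and 1.15, beyond TGIF1, with open points.

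Of 25 other family ligands, 19 were at 0 throughout and 1 was tested. GDF15, a stress-induced divergent member of the family, was listed at 22 in each NonS library and at 92 and 88 with the APC shRNA (adjusted p = 0.0423 in limma). GDF11, which signals through activin receptors, was listed at 2 with each NonS library and at 5 with each APC shRNA library, and was named after its values were seen.

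Of 17 receptors and co-receptors, 12 were above 0, 2 were tested and none was called. Of the 12, 3 were separated upwards and 1 downwards, beside 25.9% and 19.1% of all genes above 0. TGFBR2, the type II receptor for TGF-β, was listed at 24 and 26 with the NonS shRNA and at 17 and 18 with the APC shRNA, a difference of -0.49 (SE 0.07, adjusted p = 0.0563 in limma). Its partner TGFBR1 was listed at 2 in 3 libraries and at 1 in APC shRNA replicate II. ACVR1B, the activin type I receptor, was listed at 8 and 9 and at 10 and 13 (difference 0.39, adjusted p = 0.203 in limma). ACVR2A and ACVR2B, the activin type II receptors, were at 1 or 2. The BMP receptor genes BMPR1A and BMPR2 were low in both conditions. BMPR1A was at 3 in all 4 libraries, and BMPR2 at 4 and 3 against 3 and 2.

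Of 15 SMADs and their nuclear or ubiquitin regulators, 5 were tested and 1 rose. TGIF1, a homeodomain co-repressor of SMAD2 and SMAD3, was listed at 15 and 16 with the NonS shRNA and at 28 and 34 with the APC shRNA, a difference of 0.95 (SE 0.12, adjusted p = 0.0490 in limma). The call was lost in limma with a mean of at least 8 (adjusted p = 0.0538), at least 10 in every sample (0.0524), a pseudocount of 5 (0.0511) and every gene above 0 tested (0.0708). SMAD4 was listed at 1 and SMAD2 at 2 in all 4 libraries. SMAD3 was listed at 17 and 22 with the NonS shRNA and at 13 and 18 with the APC shRNA (difference -0.32, adjusted p = 0.383 in limma), overlapping between the conditions.

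Of 17 secreted and membrane inhibitors, 11 were at 0 throughout, the classic BMP antagonists NOG, CHRD and GREM1 among them. SOSTDC1, a secreted antagonist of BMPs that also acts on Wnt signaling, was listed at 3 and 2 with the NonS shRNA and at 20 and 19 with the APC shRNA. The difference was 2.56 (SE 0.18, adjusted p = 0.0423 in limma), but SOSTDC1 reached a mean of 10 only through its APC shRNA values. Of 18 genes for latency, processing and activation, 3 were tested and none was called. LTBP3, a latent TGF-β binding protein, was listed at 8 and 15 and at 16 and 22 (difference 0.72, adjusted p = 0.267 in limma).

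Of 18 TGF-β and activin target genes, 3 were tested and TGIF1, which is also in the list of regulators, was the gene that rose. PMEPA1, a feedback inhibitor of SMAD signaling named after its values were seen, was listed at 9 and 14 with the NonS shRNA and at 22 and 38 with the APC shRNA (difference 1.29, adjusted p = 0.127 in limma). Of 13 BMP target genes, 3 were tested and none was called. ID2, an inhibitor of helix-loop-helix factors, was listed at 24 with each NonS library and at 11 and 19 with the APC shRNA (difference -0.69, adjusted p = 0.211 in limma). ID1 was listed at 50 and 65 and at 62 and 78, overlapping between the conditions. ATOH8, like ID1 named after its values were seen, was listed at 1 with each NonS library and at 8 and 10 with the APC shRNA, with a mean under 10.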

How the data were processed

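RNA of HT-29 cells with a DOX-inducible APC or NonS shRNA was sequenced, 2 libraries per condition, grouped by their labels. The authors quality-filtered 50 bp single reads, trimmed polyA tails, mapped with TOPHAT2 to human genome assembly 38 and assigned reads to genes with htseq-count and GENCODE 29. The submitters' processing notes instead name hg19, with bcl2fastq 2.19.0.316 and DESeq2 1.4.1. Coordinates given here are GENCODE 29 on GRCh38.

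The deposited whole numbers were used as a score whose scale is not stated, inferred from the values: low genes varied between replicates by 0.484 (NonS) and 0.363 (APC shRNA) times the Poisson variance, and value times length of the longest transcript in kb summed to between 980841 and 984873 per library. Library totals of the values were 398338 to 413595. The authors' table of their own comparison (mean, log2 fold change, fold change, adjusted p-value) was not used. No column of sample values was left out.

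log2(value + 1) was fitted with limma 3.58.1 in R 4.3.3 (eBayes with trend) in 5376 genes that averaged 10 or more. Standard errors are moderated, with 1.14 prior degrees of freedom. No count model was run, as these are not counts. The libraries of a condition are described as biological duplicates. The test was tried on simulated data. The genes, lists and test were chosen with earlier results of these data known. Genes were named by a rule: the 10 members, APC, the receptor and SMAD genes TGFBR1, TGFBR2, ACVR1B, ACVR2A, ACVR2B, BMPR1A, BMPR2, SMAD2, SMAD3 and SMAD4, called genes of each list or, if none, its largest tested difference, and the 3 closest patterns of the 2 members with the largest difference. Other genes, GDF11, PMEPA1, ID1 and ATOH8 among them, were outside the rule, and these 4 and the motifs were chosen after the values were seen. LRRC33, 1 gene of the lists, was not matched by symbol, and some list genes are counted but not reported by name here.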

Additional observations from a re-analysis of the deposited data

How the results depend on the processing

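None of the 10 genes was called in limma as reported, and 2 of the 3 tested had an unadjusted p under 0.05. Scaling by the median of ratios, by upper quartiles or by equal totals each called 2, BMP4 and TGFBI. So did robust moderation, a GC content correction and a replicate block (adjusted p = 0.0468 in limma for both genes with the block). Each of these settings also called more of all genes in either direction than the 8.04% of the reported fit. The share was 11.4% with median of ratios, 11.8% with upper quartiles, 13.2% with equal totals, 13.4% with robust moderation and 19.0% with the block. The GC content correction called 439 of all genes higher and 475 lower. Adding a GC content correction to the replicate block called 3, with TGFB1 added at a difference of -0.45 (adjusted p = 0.0117 in limma) and 0.00330 for BMP4 and TGFBI. In that fit 46.0% of all genes tested were called in either direction. A mean of at least 8 called 1, TGFB3, which met that limit only through its APC shRNA values (2.59% of all genes called higher there). A test of all genes above 0 in any library called 3, TGFB3, INHBB and BMP7 (7.44% called higher there). The entries of these 3 were equal or nearly equal within each condition. The study's thresholds of over 4-fold and 0.01 called 0, since no gene of the reported fit had an adjusted p under 0.01. The other settings also called 0. The 233 genes higher and 199 lower became 952 and 515 with every gene tested, 368 and 352 with robust moderation, 439 and 475 with GC content correction, 523 and 500 with the replicate block, and 1175 and 1291 with the block and GC content correction. At least 10 in every sample gave 139 higher, and scaling by median of ratios 305 and to equal totals 369 lower. The 3 of 18 pathway genes called became 10 of 66 with every gene tested, where 11.5% of all genes were called. They became 5 of 18 with the replicate block (19.0% of all genes) and 11 of 18 with the block and GC content correction (46.0%). At least 10 in every sample called 1 (5.83% of all genes). A mean of at least 8 (4.87%) or a pseudocount of 5 (8.07%) called 2. TGIF1 is not among the 10, the 1 or these 2.

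Leaving out each library in turn gave 0 genes called in either direction, and so 0 members and 0 pathway genes. Each of these fits left 1 library in a condition, with 1 residual degree of freedom per gene, and took its spread from the other condition, so the lone library was assumed to vary alike. In these fits BMP4 differed by 0.95 to 1.25, TGFBI by 0.92 to 1.37 and TGFB1 by -0.59 to -0.06. For these changes the cause was not tested. No difference of the 10 genes reversed. Same-numbered libraries deviated together (correlation 0.724 over the genes tested, between the 2 conditions), a hint from the data and not the design, so the block is given only here. The whole numbers limit every value below about 10.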
